A study of Solanum lycopersicum with 12 samples.

Results

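The GABA shunt was described here by 6 gene models of tomato (Solanum lycopersicum) leaf, out of 34075 in the deposited count table. They were taken by identifier, as a list of 3 glutamate decarboxylases (Solyc11g011920.2.1, Solyc03g098240.3.1 and Solyc01g005000.3.1), 2 GABA transaminases (Solyc07g043310.3.1 and Solyc12g006450.2.1) and 1 succinic semialdehyde dehydrogenase (Solyc09g090700.1.1). The enzyme assigned to each identifier came with the list, and the identifiers are written below without their version numbers. No member was left out, and all 6 passed the filter on low counts.

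GABA (gamma-aminobutyric acid) is an amino acid that does not enter proteins and that plants accumulate under many stresses. Glutamate decarboxylase makes it from glutamate in the cytosol, and in many plants calcium-bound calmodulin activates this enzyme. GABA transaminase then converts GABA to succinic semialdehyde, and succinic semialdehyde dehydrogenase oxidises this reactive aldehyde in mitochondria to succinate, an intermediate of the tricarboxylic acid cycle. The route thereby bypasses the steps of the cycle between 2-oxoglutarate and succinate. The data concern transcripts only, and neither GABA nor enzyme activity was measured in them.

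The 12 libraries came from leaves of plants in 4 groups of 3, labelled as control, salinity, heat, and salinity with heat, which is called the combination below. The salt concentration, temperature, duration, cultivar, plant age and number of plants per library are not given in the sources used here. Nothing in the labels says that the libraries of a group came from separate plants, so the tests measure the spread between these libraries, which may be partly technical. The study was designed to describe what salinity and heat applied jointly do to the metabolism of tomato.

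Total counts were between 56281339 and 78370751 per library. The levels below are CPM, counts scaled to a library of 1000000, on library sizes adjusted by TMM, a method that aligns the bulk of the genes between libraries. Statements that libraries lay apart or overlapped are on this scale, and some do not hold on total counts. A list of 4 leaf gene models summed to between 34226 and 109979 CPM in every library. Of 2 fruit gene models, 1 had no count in any library and the other reached 20.7 CPM at most, in a heat library. Salinity replicate 1 stood apart as the only salinity library above the control range on a pair of gene models listed as salt-responsive. The first was at 722 CPM there, against 1.02 and 0.641 CPM in salinity replicates 2 and 3, 0.563 to 4.84 CPM in control and 19.1 to 33.6 CPM in the combination. The second was at 40.7 CPM in that library and at 0.111 and 0.0626 CPM in the other salinity libraries. Its range of 0.272 to 0.705 CPM in the combination overlapped that of control (0.0561 to 0.402 CPM). On both gene models, salinity replicates 2 and 3 thus lay within the range of control. A gene model listed as heat-responsive reached 1.54, 2.40 and 6.74 CPM in heat, and its range of 0.844 to 1.72 CPM in the combination overlapped that of control (1.10 to 1.70 CPM). For the members, in comparisons that involve the salinity group, the value without salinity replicate 1 is therefore also given where a call changed or the value moved by over 1.5 times. Which of the salinity libraries are typical of the treatment was not tested.

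The members did not respond as a block. Salinity alone went with a higher level of the glutamate decarboxylase Solyc11g011920 and a lower level of the dehydrogenase Solyc09g090700, and the GABA transaminase Solyc07g043310 was just past the threshold. Heat alone went with lower levels of the glutamate decarboxylase Solyc01g005000 and of the GABA transaminase Solyc12g006450. In the combination the GABA transaminase Solyc07g043310 was higher and Solyc12g006450 was lower than in control. Solyc03g098240 did not pass the test in any comparison.

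Set against the whole table, the number of members called was close to that of other gene models. In salinity against control 3 of 6 members were called, 2 higher and 1 lower, where 47.4% of all 20717 gene models tested passed (23.6% higher, 23.8% lower). In heat against control 2 of 6 were called, both lower, beside 39.9% of all tested (24.6% higher, 15.2% lower). In the combination against control 2 of 6 were called, 1 in each direction, beside 32.5% of all tested (17.5% higher and 15.1% lower). Combination against salinity gave 3 of 6 (1 higher, 2 lower) beside 44.5% (24.4% higher, 20.1% lower). Combination against heat gave 2 of 6 (1 in each direction) beside 40.3% (17% higher, 23.4% lower). Heat against salinity gave 4 of 6 (1 higher, 3 lower) beside 68.4% (37.9% higher, 30.5% lower). These shares lie near the background, and what follows describes which members were called and in which direction.

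**Figure D1:**
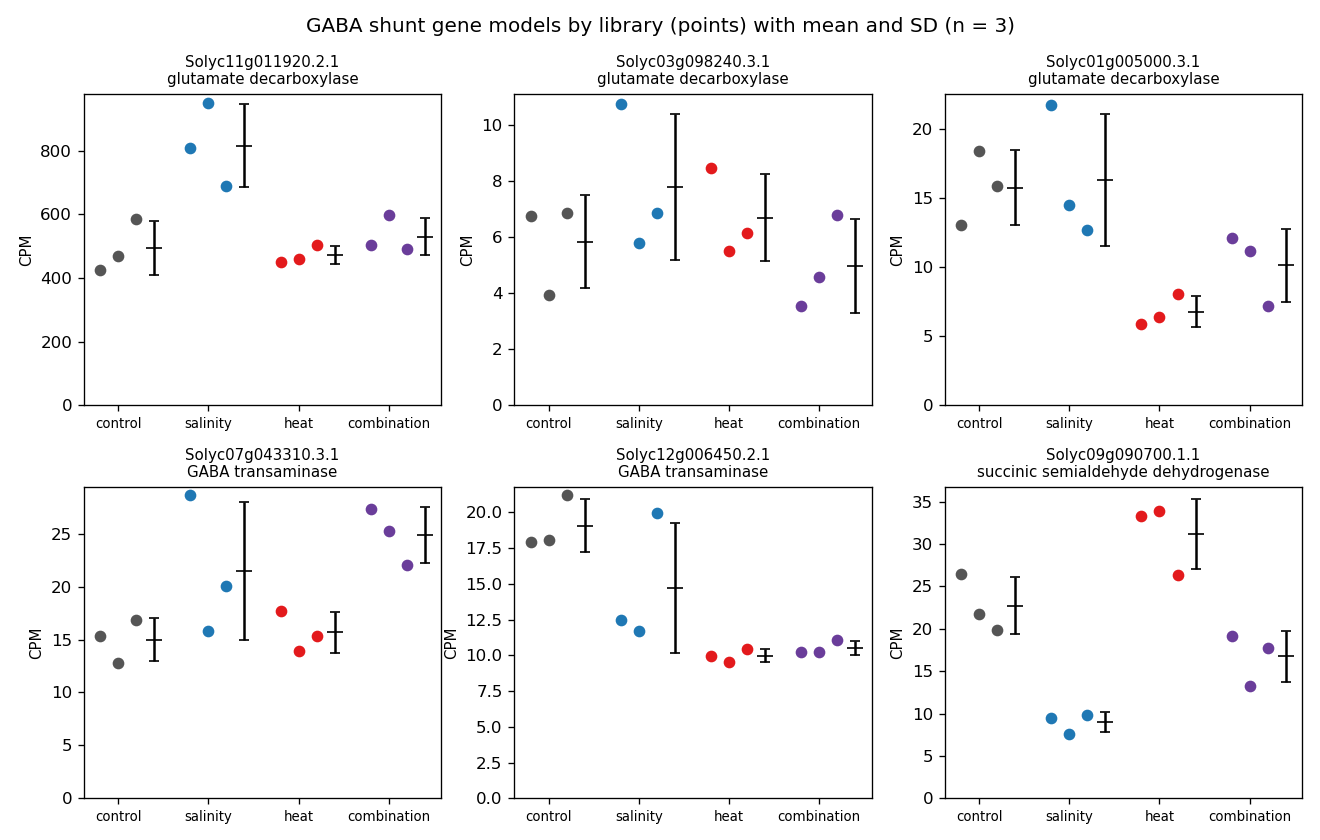
Level of each of the 6 gene models in CPM (vertical axes, starting at 0) in control, salinity, heat and combination leaves. Points are libraries and bars are the mean and SD of 3 libraries. The 3 salinity libraries of Solyc09g090700 lie at or below 9.83 CPM and those of every other group above 13.3 CPM.

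Solyc11g011920, a glutamate decarboxylase and thus an enzyme of the step that makes GABA, stood at 424, 470 and 587 CPM in control and at 807, 951 and 690 CPM in salinity. It was at 450, 461 and 504 CPM in heat and at 503, 597 and 490 CPM in the combination. On CPM scaled by TMM, the salinity libraries all lay above those of the other groups, which overlapped among themselves. On total counts salinity replicate 3 (44080 of 72608877) lay below combination replicate 1 (46286 of 74694193). The mean of Solyc11g011920 was 494 ± 84.0 CPM in control and 816 ± 131 CPM in salinity (SD, n = 3), a 1.65-fold difference. On the log2 scale the difference was 0.73 (SE 0.17; adjusted p = 0.00441, edgeR's quasi-likelihood test).

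Adding heat to salinity was accompanied by a return of Solyc11g011920 towards control. The combination, at 530 ± 58.1 CPM (SD, n = 3), was lower than salinity by a log2 fold change of -0.62 (SE 0.17, adjusted p = 0.0111, edgeR). Without any scaling factors this difference shrank to -0.19 (adjusted p = 0.279), so the call depended on scaling. Heat was lower than salinity by -0.79 (SE 0.17, adjusted p = 0.00134, edgeR), and by -0.34 without scaling factors (adjusted p = 0.0448). Control, heat and combination did not pass the test against each other, with 95% intervals for the log2 fold change from -0.46 to 0.33 for heat against control and from -0.29 to 0.50 for the combination against control. Without scaling factors the latter was called, at 0.39 (adjusted p = 0.0448). Without salinity replicate 1 the rise in salinity was 0.73 (SE 0.18, adjusted p = 0.00784, edgeR).

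Solyc03g098240, the second glutamate decarboxylase, was counted far less deeply, with 260 to 725 counts per library. Control libraries were at 6.73, 3.92 and 6.85 CPM and salinity libraries at 10.7, 5.79 and 6.85 CPM. Heat libraries were at 8.44, 5.50 and 6.13 CPM and combination libraries at 3.53, 4.58 and 6.79 CPM. Every pair of groups overlapped. The group means ran from 4.97 ± 1.66 CPM in the combination through 5.83 ± 1.66 in control and 6.69 ± 1.55 in heat to 7.79 ± 2.59 in salinity (SD, n = 3), and no neighbours in that order differed beyond their spread. The comparison between the ends of that order, combination against salinity, gave -0.65 on the log2 scale (SE 0.31, adjusted p = 0.106, edgeR). Without combination replicate 3 this became -0.94 (adjusted p = 0.0441), without salinity replicate 1 it was -0.35 (adjusted p = 0.391) and without scaling factors -0.29 (adjusted p = 0.543). The 95% interval of salinity against control ran from -0.30 to 1.14, so that neither no change nor a log2 change of 1 lay outside it. Its estimate of 0.42 (adjusted p = 0.284, edgeR) was 0.12 without salinity replicate 1 (adjusted p = 0.781). Heat against salinity gave -0.22 (adjusted p = 0.54, edgeR) and turned to 0.08 without that library (adjusted p = 0.833).

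Solyc01g005000, the third glutamate decarboxylase, stood at 13.1, 18.4 and 15.9 CPM in control and at 21.8, 14.5 and 12.7 CPM in salinity. In heat it was at 5.89, 6.44 and 8.05 CPM, below every control and every salinity library. The combination libraries, at 12.2, 11.2 and 7.17 CPM, lay below all control libraries and overlapped those of heat.

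The mean of Solyc01g005000 was 15.8 ± 2.68 CPM in control and 6.79 ± 1.12 CPM in heat (SD, n = 3), a 2.32-fold difference, with a log2 fold change of -1.22 (SE 0.25, adjusted p = 0.00337, edgeR). In the combination it was 10.2 ± 2.64 CPM. The difference from control, at -0.63 (SE 0.24), missed the threshold with an adjusted p of 0.0638 in edgeR, and so did the difference from heat, at 0.58 (SE 0.24, adjusted p = 0.0745, edgeR). The combination was lower than salinity by -0.68 (SE 0.24, adjusted p = 0.0379, edgeR). That call was lost without salinity replicate 1, where the value was -0.42 (adjusted p = 0.171), without combination replicate 3 (-0.48, adjusted p = 0.142), without salinity replicate 2 (-0.76, adjusted p = 0.0506) and without scaling factors (-0.29, adjusted p = 0.443). Without salinity replicate 1 the differences of the combination from control and from heat passed, at -0.63 (adjusted p = 0.0377) and 0.58 (adjusted p = 0.0459). That library is in neither comparison, but the estimate of the spread is shared by all groups. What moved these calls was not tested. The difference from heat also passed without combination replicate 3, at 0.78 (adjusted p = 0.0289, edgeR), and was called in 2 of 12 such fits. DESeq2's Wald test called it as well, at 0.64 (adjusted p = 0.039). Salinity against control gave 0.05 with a 95% interval from -0.51 to 0.61 on the log2 scale, and -0.22 without salinity replicate 1 (adjusted p = 0.488). Without scaling factors the combination against control was -0.34 (adjusted p = 0.41). Heat was lower than salinity by -1.26 (SE 0.25, adjusted p = 0.000643, edgeR), a call that held in all 12 fits that left out a library. Without scaling factors that difference was -0.87 (adjusted p = 0.0227).

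**Figure D2:**
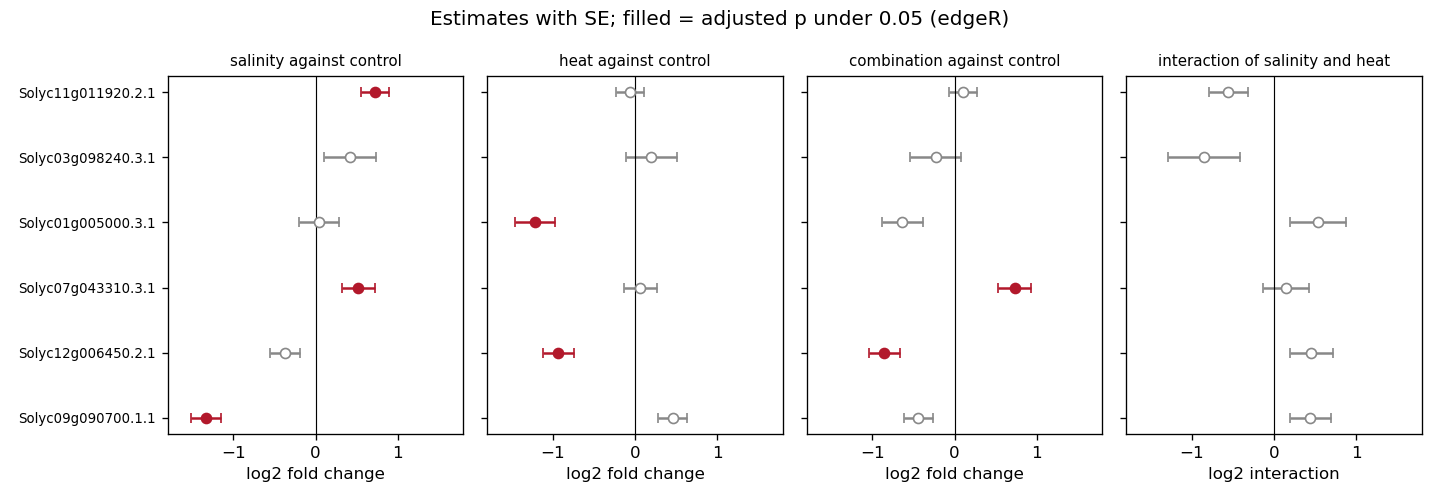
Log2 fold change against control in salinity, heat and the combination, and the interaction on the log2 scale (horizontal axes), for the 6 gene models, with bars of 1 SE. Filled red points passed the adjusted p threshold of 0.05 in edgeR. Solyc09g090700 has the lowest value in salinity, -1.34, and no filled point stands in the interaction panel.

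The transaminases take the next step, the removal of GABA. Solyc07g043310 stood at 15.3, 12.8 and 16.8 CPM in control, at 17.7, 13.9 and 15.4 CPM in heat and at 27.3, 25.3 and 22.1 CPM in the combination. The combination libraries all lay above those of control and of heat. The salinity libraries were spread over 28.6, 15.8 and 20.0 CPM and overlapped every other group. Salinity replicate 1, which stood apart on the salt-responsive pair, was the highest of them.

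For Solyc07g043310 the combination mean of 24.9 ± 2.64 CPM exceeded the control mean of 15.0 ± 2.03 CPM (SD, n = 3) by 1.66-fold. The log2 fold change was 0.73 (SE 0.20, adjusted p = 0.015, edgeR) against control and 0.67 (SE 0.20, adjusted p = 0.02, edgeR) against heat, whose mean was 15.7 ± 1.90 CPM. The call against control was lost without control replicate 2, combination replicate 1 or combination replicate 2, with adjusted p of 0.0654, 0.0503 and 0.0567 in edgeR. The call against heat was lost without combination replicate 1 or heat replicate 2, with adjusted p of 0.0574 and 0.0806 in edgeR, and without scaling factors (adjusted p = 0.0884). The values stayed between 0.63 and 0.83 against control and between 0.59 and 0.76 against heat when any 1 of the 12 libraries was left out.

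The rise of Solyc07g043310 in salinity alone was close to the threshold. It amounted to 0.52 on the log2 scale (SE 0.20, adjusted p = 0.0484, edgeR), with a salinity mean of 21.5 ± 6.52 CPM (SD, n = 3). Without salinity replicate 1 it was 0.26 (SE 0.18, adjusted p = 0.242, edgeR). Leaving out a library kept the call in 2 of 12 fits, and the groups overlapped. Heat against salinity gave -0.46 (SE 0.20, adjusted p = 0.0591, edgeR). It passed without salinity replicate 2 (-0.63, adjusted p = 0.0126) or combination replicate 2 (-0.57, adjusted p = 0.033), and was -0.20 without salinity replicate 1 (adjusted p = 0.336) and -0.08 without scaling factors (adjusted p = 0.821). Combination replicate 2 is in neither of these groups. Leaving it out moved the median over all tested gene models in heat against salinity from 0.15 to 0.04. The combination against salinity gave 0.21 (SE 0.20, adjusted p = 0.415, edgeR), which was 0.47 without salinity replicate 1 (adjusted p = 0.0492), 0.03 without salinity replicate 2 (adjusted p = 0.91) and 0.58 without scaling factors (adjusted p = 0.1055).

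Solyc12g006450, the other transaminase, was lower than control in both heated groups. It stood at 17.9, 18.1 and 21.2 CPM in control, at 9.98, 9.52 and 10.4 CPM in heat and at 10.3, 10.3 and 11.1 CPM in the combination. Both heated groups lay below all control libraries and had the narrowest spread of any member, with coefficients of variation of 4.61% and 4.63%. The salinity libraries were at 12.5, 11.7 and 19.9 CPM, the last of them within the range of control and the others below it.

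The mean of Solyc12g006450 fell from 19.1 ± 1.84 CPM in control to 9.98 ± 0.459 CPM in heat and 10.5 ± 0.488 CPM in the combination (SD, n = 3). The log2 fold changes were -0.93 (SE 0.19, adjusted p = 0.00301, edgeR) and -0.85 (SE 0.19, adjusted p = 0.00415, edgeR). The second was -0.56 with an adjusted p of 0.0882 when no scaling factors were used. Combination and heat did not pass the test against each other, with a 95% interval from -0.35 to 0.51. Salinity against control gave -0.37 (SE 0.18, adjusted p = 0.114, edgeR). Without salinity replicate 3, the high library, it was -0.65 (SE 0.15, adjusted p = 0.00467, edgeR), and without salinity replicate 2 it was -0.23 (adjusted p = 0.348). The combination was below salinity in all libraries, by -0.48 (SE 0.19), with an adjusted p of 0.05002 that lay on the threshold. It passed without salinity replicate 1 (-0.59, adjusted p = 0.0306) or salinity replicate 2 (-0.62, adjusted p = 0.0242). Without salinity replicate 3 it was -0.20 (adjusted p = 0.292), and without scaling factors -0.07 (adjusted p = 0.815). Heat was lower than salinity by -0.56 (SE 0.19, adjusted p = 0.0166, edgeR). That call was lost without salinity replicate 3, at -0.28 (adjusted p = 0.107), without heat replicate 2, at -0.53 (adjusted p = 0.051), and without scaling factors, at -0.15 (adjusted p = 0.603).

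Between the transaminases, Solyc07g043310 was thus called higher and Solyc12g006450 lower in the combination against control. In heat alone Solyc07g043310 had a 95% interval from -0.40 to 0.53 and Solyc12g006450 one from -1.36 to -0.51, both on the log2 scale. These 2 intervals do not overlap, but the difference between the genes was not itself tested.

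Solyc09g090700, the dehydrogenase that ends the shunt, had the widest range of group means among the members, 3.47-fold from the lowest to the highest. It stood at 26.4, 21.8 and 19.9 CPM in control and at 9.51, 7.59 and 9.83 CPM in salinity. It was at 33.3, 33.9 and 26.4 CPM in heat and at 19.2, 13.3 and 17.7 CPM in the combination. The order of the groups was salinity, combination, control and heat. Salinity lay below and apart from all others, the combination lay just below control, and control and heat overlapped narrowly.

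Solyc09g090700 fell from 22.7 ± 3.36 CPM in control to 8.98 ± 1.21 CPM in salinity (SD, n = 3), 2.53-fold, with a log2 fold change of -1.34 (SE 0.18, adjusted p = 0.000159, edgeR). Heat, at 31.2 ± 4.16 CPM, was 0.46 above control on the log2 scale (SE 0.18), and the adjusted p of 0.0562 missed the threshold. It passed without control replicate 1 (0.58, adjusted p = 0.0388), without heat replicate 3 (0.56, adjusted p = 0.0365) and without scaling factors (0.75, adjusted p = 0.0334). The combination, at 16.7 ± 3.05 CPM, was 0.44 below control, a log2 fold change of -0.44 (SE 0.18), with an adjusted p of 0.0752 in edgeR. Without scaling factors the latter was -0.14 (adjusted p = 0.714). Neither neighbour of control in the order therefore passed the test.

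The estimates for each stress on Solyc09g090700 had the same sign with and without the other. The change with salinity was -1.34 on the log2 scale without heat and -0.90 with heat (SE 0.18, adjusted p = 0.00287, edgeR). The change with heat was 0.90 in the presence of salinity (SE 0.18, adjusted p = 0.00184, edgeR) and the uncalled 0.46 in its absence. The interaction, the log2 effect of heat with salinity minus that without it, was 0.44 (SE 0.25, adjusted p = 0.292, edgeR). If the single changes had multiplied, the combination would have been at 12.3 CPM, against the 16.7 CPM measured. Heat against salinity gave the largest difference of any member and comparison, 1.79 (SE 0.18, adjusted p = 8.268e-06, edgeR). The calls of Solyc09g090700 in these 4 comparisons held in all 12 fits that left out a library, and without salinity replicate 1 the change in salinity was -1.38.

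**Figure D3:**
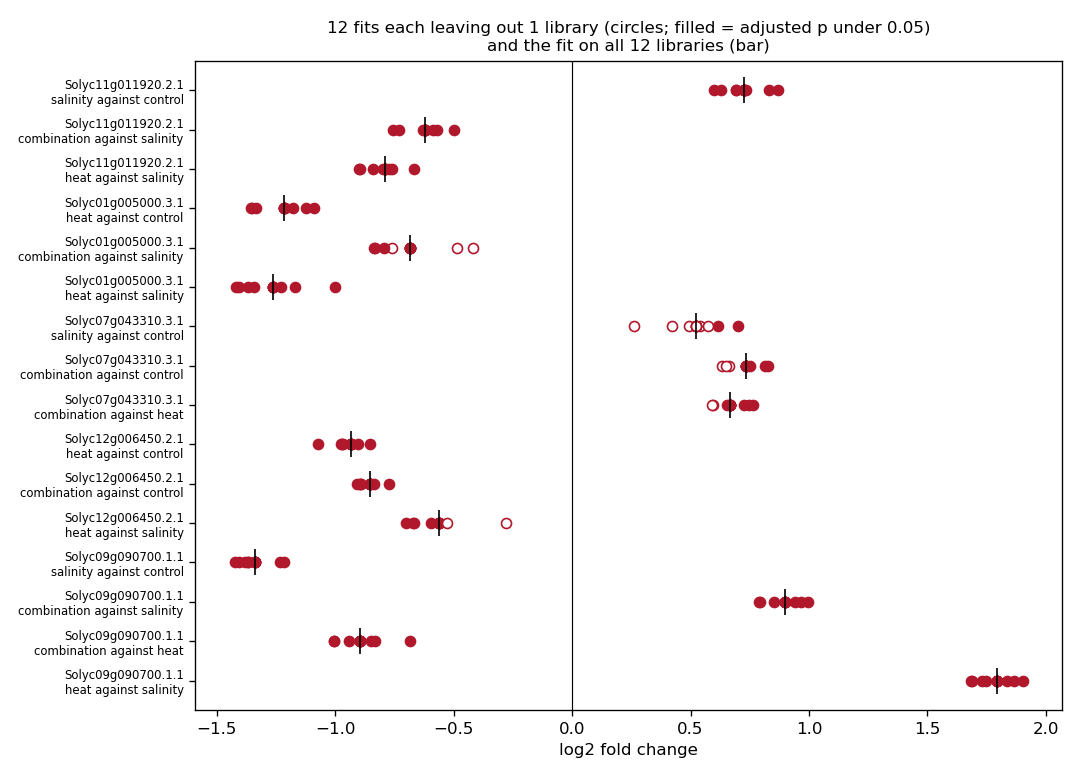
Log2 fold change (horizontal axis) of every member and pairwise comparison that was called with all libraries. Circles are the 12 fits that each left out 1 library, filled where the adjusted p stayed under 0.05, and the bar is the fit on all 12 libraries. All circles of Solyc09g090700 and Solyc11g011920 are filled, and most of those of Solyc07g043310 in salinity are open.

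The medians over the members were of the same order as those over all tested gene models. The median absolute log2 fold change was 0.47 for the members and 0.67 for all in salinity against control, 0.33 and 0.56 in heat against control, and 0.54 and 0.49 in the combination against control. The median signed change over all tested gene models was 0.04, 0.14 and 0.03 in these comparisons. Without scaling factors the median in heat against control moved to 0.44, so changes of that size in either direction depend on the scaling. That median was 0.05 with DESeq2 size factors and 0.005 without combination replicate 2. Of all tested gene models, 16.2% had a larger absolute change in salinity than Solyc09g090700, and 20.2% had a larger one in heat than Solyc01g005000.

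The interaction asked whether the effect of one stress differed in the presence of the other. No member was called by edgeR, where 8.94% of all tested gene models were (4.73% positive, 4.21% negative), and DESeq2's Wald test called none either. At an unadjusted p under 0.05 there was 1 member, Solyc11g011920, with an interaction of -0.56 (SE 0.24, adjusted p = 0.166, edgeR). Its combination level of 530 CPM compares with 780 CPM had the single changes multiplied. Solyc03g098240 had an estimate of -0.85 (SE 0.44, adjusted p = 0.244, edgeR), which was -0.55 without salinity replicate 1 (adjusted p = 0.441). Solyc01g005000 had an estimate of 0.53 (SE 0.34, adjusted p = 0.356, edgeR), which was 0.80 without that library (adjusted p = 0.146). That of Solyc07g043310, 0.14 (SE 0.28, adjusted p = 0.785, edgeR), was 0.41 without it (adjusted p = 0.3095). The approximate 95% intervals of all 6 included 0 and the widest ran from -1.86 to 0.16, so that the estimates do not show the effects to be equal. That of Solyc11g011920, from -1.11 to 0.001, included 0 only narrowly. Its unadjusted p was 0.0391 in edgeR's test, so this inclusion depends on the approximation used for the interval. Without salinity replicate 3 the interaction of Solyc12g006450 reached 0.73 with an adjusted p of 0.0453.

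A ratio of counts of 2 gene models within a library does not depend on how libraries are scaled. The ratio of the dehydrogenase Solyc09g090700 to the transaminase Solyc07g043310, enzymes of consecutive steps, was chosen after the values were seen and is given without a test. It was 1.73, 1.70 and 1.18 in control and 1.88, 2.43 and 1.72 in heat. In salinity it was 0.332, 0.480 and 0.490, and in the combination 0.701, 0.527 and 0.804. All 6 libraries from plants given salt lay below all 6 from plants without it. Gene lengths were not used, so the value 1 has no meaning of its own, and only the differences between groups can be read.

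**Figure D4:**
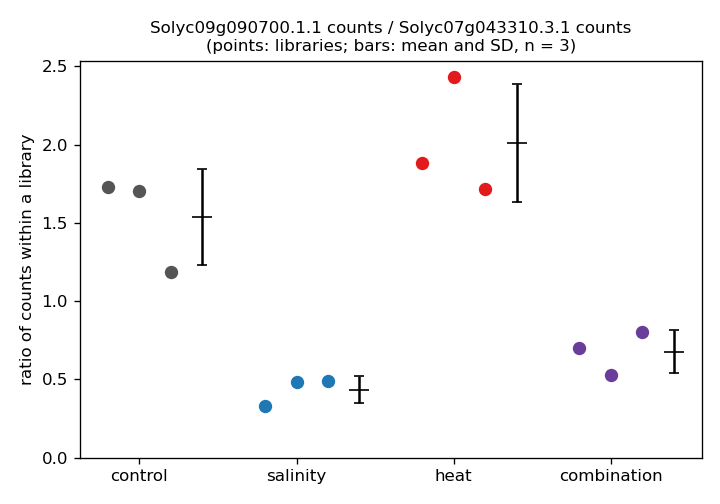
Counts of Solyc09g090700 divided by counts of Solyc07g043310 in the same library (vertical axis, starting at 0) for the 4 groups. Points are libraries and bars are the mean and SD of 3 libraries. The salinity and combination libraries reach 0.804 at most, and control and heat start at 1.18.

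The ratio to the other transaminase, Solyc12g006450, ordered the groups differently. It averaged 0.634 ± 0.134 under salinity, 1.21 ± 0.267 under control conditions, 1.59 ± 0.284 under the combination and 3.14 ± 0.542 under heat (SD, n = 3). The ratio of Solyc09g090700 to the glutamate decarboxylase Solyc11g011920 was 0.0113 ± 0.00315 under salinity, 0.0322 ± 0.00862 under the combination, 0.0476 ± 0.0143 under control conditions and 0.0666 ± 0.0123 under heat (SD, n = 3). In both ratios every salinity library lay below every library of the other groups.

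Among the members, the strongest relation across the 12 libraries was negative, between Solyc11g011920 and Solyc09g090700, with a Pearson correlation of log2 CPM of -0.923. The other glutamate decarboxylases had correlations of -0.138 (Solyc03g098240) and -0.603 (Solyc01g005000) with Solyc09g090700. The most positive relation was 0.611, between Solyc01g005000 and Solyc12g006450, the members called lower in heat. The transaminases had a correlation of -0.279. The libraries fall into 4 treatment groups, so these values mainly describe the group means and no p was computed.

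Outside the list, 11582 gene models averaging 5 CPM or more were compared with each member over the 12 libraries. The closest to Solyc09g090700 was Solyc08g007010.4.1, with a Pearson correlation of 0.995, and the third closest still reached 0.994. The closest to Solyc11g011920 was Solyc06g016760.3.1, at 0.979. The best match reached 0.951 for Solyc01g005000, 0.949 for Solyc07g043310 and 0.931 for Solyc12g006450, and 0.714 for Solyc03g098240. The files do not pair these identifiers with names.

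A list of 3 further gene models was kept as candidates for the same enzyme families, which the sources used here do not annotate. Solyc12g006470.2.1, numbered close to the transaminase Solyc12g006450, had means of 758 ± 103 CPM (control), 1020 ± 44.7 (salinity), 759 ± 83.3 (heat) and 1094 ± 27.6 (combination; SD, n = 3). On CPM scaled by TMM, all libraries of both salt-treated groups lay above all control and heat libraries. On total counts salinity replicate 2 (48041 of 67267531) lay below control replicate 2 (58596 of 72655758). The log2 fold change of Solyc12g006470 was 0.43 in salinity (SE 0.15, adjusted p = 0.0326, edgeR) and 0.53 in the combination against control (SE 0.15, adjusted p = 0.0178, edgeR). Its values in heat against control had a 95% interval from -0.35 to 0.35. Whether near-identical reads were shared between it and Solyc12g006450 is not given in the sources used here.

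Solyc04g025530.3.1 was low, at 1.29 ± 0.220 CPM in control and 0.184 ± 0.0415 CPM in heat (SD, n = 3), with a log2 fold change of -2.79 (SE 0.58, adjusted p = 0.0038, edgeR). In the combination it was at 0.395 ± 0.185 CPM, lower than control by -1.69 (SE 0.55, adjusted p = 0.0322, edgeR). The third of these gene models had 3 counts in 1 combination library and none in the others and was not tested. Of the 2 tested, 1 was called higher in salinity against control, beside 23.6% of all tested, and 1 lower in heat, beside 15.2%. In the combination against control 1 was called in each direction, beside 17.5% higher and 15.1% lower. With 2 gene models these counts cannot be set apart from the shares.

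Of the 4 gene models of the leaf list, 3 were called lower in heat against control, beside 15.2% of all tested, and 4 in the combination against control, beside 15.1%. The fourth, Solyc10g086580, was called lower in salinity against control at -1.31 and in the combination against heat at -1.30, and its value of 0.32 in heat against control was not called. Their summed level was 70085 to 77670 CPM for control, 59212 to 109979 CPM for salinity, 40790 to 45803 CPM for heat and 34226 to 42525 CPM for the combination. The members Solyc01g005000 and Solyc12g006450 were also called lower in heat, and Solyc09g090700 was called lower in salinity. The part of a changed make-up of the leaf RNA in these results was not tested, and fewer cells of a type and less RNA per cell cannot be told apart in whole-leaf libraries.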

How the data were processed

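RNA sequencing of tomato leaf was analysed in 12 libraries, 3 in each of 4 groups, mapped to groups by the treatment label. The authors deposited whole-number counts per gene model without normalization, in a table named after the ITAG annotation. Trimmomatic 0.33 and Bowtie2 2.3.4 are named in the submitters' processing notes, without a role. The counting program, strandedness and the treatment of reads with several matches are not given in the sources used here, so counts of similar, overlapping or antisense gene models are uncertain. Total counts were 56281339 to 78370751 per library, at which 3 counts are 0.0326 to 0.0668 CPM.

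The 20717 gene models kept by filterByExpr were fitted in R 4.3.3 with edgeR 4.0.16 (TMM, quasi-likelihood, 4 groups, 12 libraries), and p-values were adjusted by Benjamini-Hochberg over all of them within each of 7 contrasts. A call is an adjusted p under 0.05. An approximate SE was taken as the size of the log2 fold change over the root of F, and 95% intervals use a t distribution with 8 degrees of freedom. These intervals are approximate and can include 0 where the unadjusted p of the F test is under 0.05. An exact permutation test of 3 against 3 libraries cannot go below 0.1 and was not used. TMM factors ran from 0.668 (salinity replicate 2) to 1.23. Replicates of a group all differed by more than sampling noise.

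The members, lists and tests were chosen with earlier results of these data known. All 6 members were tested in every contrast, and not every value is printed. The 3 closest gene models to each member were found by Pearson correlation of log2 CPM (prior count 2), and not all are printed. Gene lengths were not used, so levels are not compared between gene models. RefSeq's gene table lists symbols such as SSADH and GABA-TP1 but pairs none with the identifiers of the files. The planned list by gene description and the promoter motifs were not run for that reason. Alternatives were other scalings, filters, DESeq2 1.42.0, a replicate block, only the groups compared, halved counts and leaving out each library. For single gene models these were read for the 6 members only.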

Additional observations from a re-analysis of the deposited data

How the results depend on the processing

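No alternative reversed the sign of a called member. DESeq2's Wald test called 4 members in the combination against control (2 with edgeR), adding Solyc01g005000 at -0.67 (adjusted p = 0.0363) and Solyc09g090700 at -0.47 (adjusted p = 0.0395). Of all 20717 tested gene models it called 7700 there (6739 with edgeR). Without scaling factors 1 member was called in the combination against salinity (3 with TMM) and 1 in the combination against heat (2 with TMM). Of all tested gene models 9643 were called in the first (9213 with TMM) and 6522 in the second (8355 with TMM). The cause was not tested. Leaving out 1 library gave 2 to 3 members in salinity against control, 2 to 3 in heat against control, 1 to 3 in the combination against control, 3 to 4 in the combination against salinity, 1 to 3 in the combination against heat, 3 to 5 in heat against salinity and 0 to 1 in the interaction. Of all 20717 tested gene models, the same fits called 7467 to 10131 in salinity against control and 4804 to 8804 in heat against control. They called 4615 to 7230 in the combination against control, 6587 to 9558 in the combination against salinity and 4900 to 8931 in the combination against heat. In heat against salinity they called 12567 to 14342, and in the interaction 806 to 2066. Leaving out scaling factors altogether changed the most member calls. Without them 34 of the 42 member values kept their side of the threshold, with 6 calls lost and 2 gained. That number was 37 with DESeq2's Wald test, 38 with the replicate block and 40 with DESeq2 size factors. It was 42 each with halved counts and a filter of 10 counts in 3 libraries. Without scaling factors the share of called gene models that were higher moved from 61.8% to 80.6% in heat against control. With DESeq2 size factors this share was 52.5%. Without combination replicate 2, which is in neither group of that comparison, it was 48.6%, the largest move among the fits leaving out 1 library. The share with TMM thus also depended on the scaling. Same-numbered libraries did not deviate together, with a mean correlation of -0.0113 over 18 pairs (5 above 0.1), so the numbers are not taken as pairs. With the replicate number as a block, 3 members were called in heat against control, where Solyc09g090700 passed at 0.47 (adjusted p = 0.0484), 3 in salinity against control and 2 in the combination against control. The block gave 7783, 9442 and 6377 calls over all tested gene models in these comparisons, against 8259, 9817 and 6739 without it. It also lost the call of Solyc01g005000 in the combination against salinity (adjusted p = 0.0525) and gained those of Solyc12g006450 there (adjusted p = 0.0419) and of Solyc07g043310 in heat against salinity (adjusted p = 0.042). With 3 libraries per group, the log2 change at the edge of what the test called depended on the member and comparison. For Solyc07g043310 in salinity against control, 0.52 was called (adjusted p = 0.0484, edgeR). For Solyc01g005000 in the combination against control, -0.63 was not (adjusted p = 0.0638, edgeR). Neither was -0.65 for Solyc03g098240 in the combination against salinity (adjusted p = 0.106, edgeR).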
